A study of Mus musculus with 2 samples.

Results

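F13a1, F10, F7, F3, Thbd, Procr, Plau and Plaur are genes of blood clotting and clot removal, and their RNA was followed here through the phagocytes of a mouse tumor. They are 8 of the 32285 genes in the count files, taken by symbol, and each matched a single Ensembl identifier. The set was chosen with earlier results of these data known. The source was a subcutaneous syngeneic fibrosarcoma, implanted in mice of genotype WT C57BL/6. The digested tumor was passed over a magnetic column. The flowthrough gave the iron-negative library, and the magnetically enriched eluate gave the iron-positive library. Each fraction gave 1 library of 3' single-cell RNA. Both share genotype, strain and tumor, and the column step is the labelled difference between them. The tumor line, the number, age and sex of the animals and any pooling are not given in the sources used here. With 1 library per fraction there is no replicate check, and no p-value was computed. Every difference below is between 2 libraries.

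Clotting begins when tissue factor, the membrane protein encoded by F3, binds factor VII (F7). That complex activates factor X (F10), which leads to thrombin and fibrin, and factor XIII, whose A subunit F13a1 encodes, then cross-links the fibrin. Thrombomodulin (Thbd) and the endothelial protein C receptor (Procr) turn thrombin toward activation of protein C, which slows clotting. Urokinase (Plau), bound to its receptor (Plaur), makes plasmin, which dissolves fibrin and other matrix. The liver and endothelium are the textbook sources of many of these proteins, but monocytes and macrophages are known to make several of them, factor XIII A among them.

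On the mm10 build with GENCODE annotation, F7 (ENSMUSG00000031443, chr8:13026034-13035809, plus strand) and F10 (ENSMUSG00000031444, chr8:13037308-13056676, plus strand) lie next to each other, with 1498 bases between them. F13a1 (ENSMUSG00000039109) occupies chr13:36867178-37050244 on the minus strand, where 2 genes on the opposite strand, Gm49144 and Gm30489, overlap it. F3 (ENSMUSG00000028128) lies at chr3:121723537-121735048, Thbd (ENSMUSG00000074743) at chr2:148404466-148408188 and Procr (ENSMUSG00000027611) at chr2:155751117-155755471. Plau (ENSMUSG00000021822) lies at chr14:20836660-20843385 and Plaur (ENSMUSG00000046223) at chr7:24462484-24475968. All 8 are protein-coding, and none of the others overlaps another annotated gene.

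The start regions of 4 of them are printed because the 4 genes make a pair of contrasts in the values that follow. F7 and F10 are neighbors whose RNA was found in phagocytes, while F3 and Procr were highest in stromal cells. Each sequence runs 5′ to 3′ from 250 bases before to 50 bases after a RefSeq start site on GRCm38.p6, at chr8:13025784-13026083 for F7, chr8:13037058-13037357 for F10, chr3:121723287-121723586 for F3 and chr2:155750967-155751266 for Procr, all on the plus strand. RefSeq windows were matched for 6 of the 8 genes. Capitals mark matches, on either strand, to GAGGAA (the core read by ETS factors such as PU.1), TGANTCA (AP-1) or TGACNNNGC (the core of the antioxidant response element).
F7: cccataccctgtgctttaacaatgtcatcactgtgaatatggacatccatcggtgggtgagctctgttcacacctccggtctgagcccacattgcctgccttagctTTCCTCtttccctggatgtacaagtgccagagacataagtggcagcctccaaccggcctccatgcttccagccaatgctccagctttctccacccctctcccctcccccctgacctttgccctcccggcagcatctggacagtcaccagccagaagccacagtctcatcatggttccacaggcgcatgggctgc
F10: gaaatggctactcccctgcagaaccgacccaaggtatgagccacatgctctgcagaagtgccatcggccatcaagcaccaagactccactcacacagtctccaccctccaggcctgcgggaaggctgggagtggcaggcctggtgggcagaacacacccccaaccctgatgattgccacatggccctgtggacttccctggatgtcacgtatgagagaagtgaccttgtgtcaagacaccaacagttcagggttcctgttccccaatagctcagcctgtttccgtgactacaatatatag
F3: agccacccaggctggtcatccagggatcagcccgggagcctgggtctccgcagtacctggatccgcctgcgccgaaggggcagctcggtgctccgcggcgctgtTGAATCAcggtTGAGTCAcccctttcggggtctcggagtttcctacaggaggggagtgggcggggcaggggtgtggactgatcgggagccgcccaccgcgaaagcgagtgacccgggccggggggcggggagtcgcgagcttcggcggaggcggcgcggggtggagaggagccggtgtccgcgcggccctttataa
Procr: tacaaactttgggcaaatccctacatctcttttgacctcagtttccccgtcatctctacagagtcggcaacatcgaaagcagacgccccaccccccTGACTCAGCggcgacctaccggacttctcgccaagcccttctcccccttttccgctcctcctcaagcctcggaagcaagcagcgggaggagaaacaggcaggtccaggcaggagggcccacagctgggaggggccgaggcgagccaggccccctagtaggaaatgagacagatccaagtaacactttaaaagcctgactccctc
The F3 window held 2 AP-1 matches, which began at positions -146 and -135 from the start site. The single AP-1 match of Procr, at position -154, is also the first part of its antioxidant response element match. F7 held 1 ETS match, at position -144, and the F10 window held none of these letters. The windows of F13a1 and Plaur, not printed, also held matches. Plaur had an AP-1 match at position -69 and ETS matches at -216 and -131. Both F13a1 windows had ETS matches. In the iron-positive library, Plaur stood at 302 CPM (counts scaled to 1000000 per group) in phagocytes and at 173 CPM in endothelial cells. The endothelial level was the highest of the stromal classes, so AP-1 matches were not confined to genes highest in stroma. Among 32851 promoter windows of the same length, 28.3% held GAGGAA, 7.81% TGANTCA and 12.4% TGACNNNGC. A match describes the letters only.

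The iron-negative library held 10124 barcodes and 132796517 unique molecular identifiers (UMIs, counted RNA molecules), and the iron-positive library 13668 barcodes and 129921053 UMIs. After filtering, 9403 and 12143 cells remained, with medians of 13017 and 7349 UMIs. The libraries shared 85 barcode sequences. Phagocytes, gated on 14 marker genes, numbered 9121 in the iron-negative library (97.0% of cells) and 9494 in the iron-positive library (78.2%). All 14 markers stood above 50 CPM (counts scaled to 1000000 per group) in both. The stromal classes were nearly all in the iron-positive library, with 687 endothelial, 121 pericyte or smooth muscle and 276 mesenchymal cells against 13, 1 and 36. The mesenchymal class may hold both tumor cells and fibroblasts, which were not separated. Phagocytes were placed in 10 states named by the genes that gate them, none of which is among the 8. Such a state is a range of a score and no cell type, and 6.69% of the 16164 scored cells lay within 0.1 SD of the cut. All levels are CPM of UMIs summed over the cells of a group. Intervals are exact 95% intervals that cover counting error only.

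**Figure D1:**
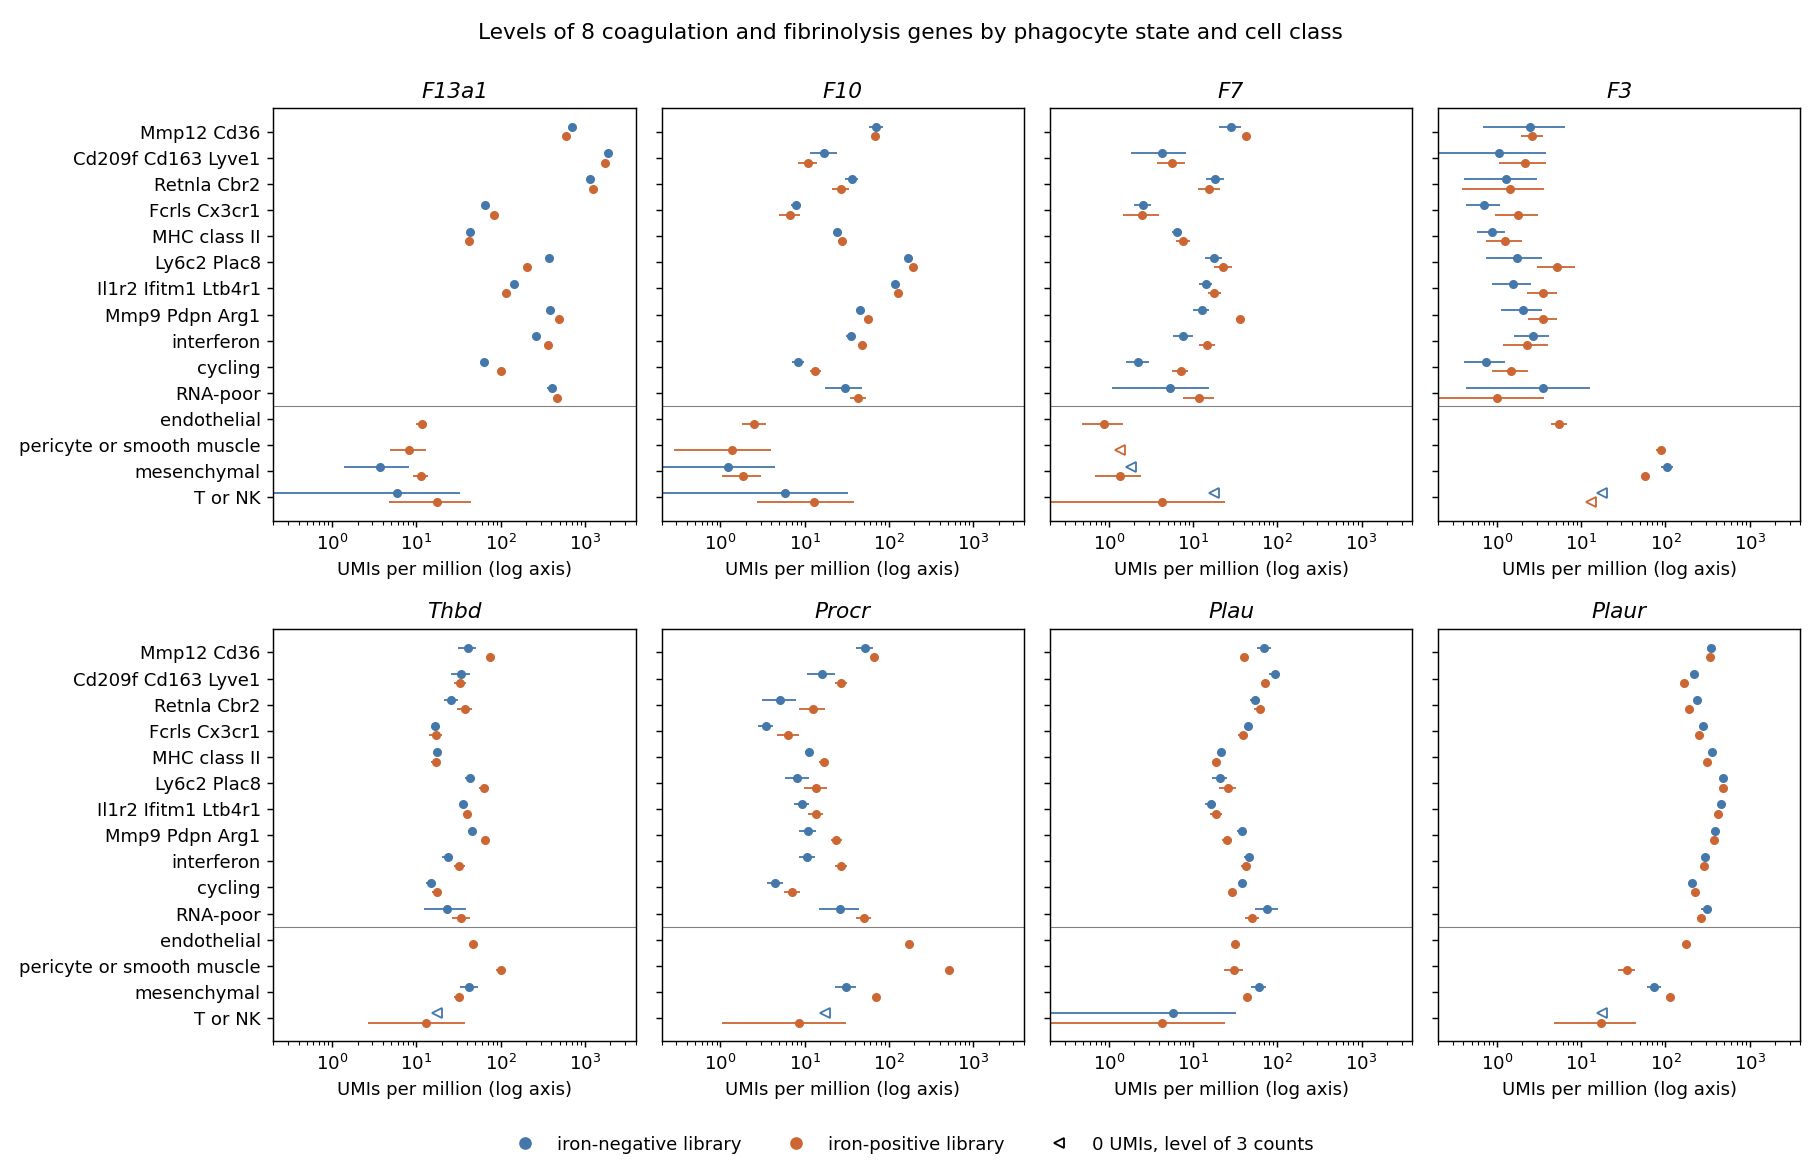
Level of each gene (CPM, log axis) in the 10 phagocyte states, in RNA-poor phagocytes under 2000 UMIs, and in 4 other cell classes, with blue points for the iron-negative and orange for the iron-positive library and bars for exact 95% counting intervals. Classes under 20 cells are left out. F13a1 peaks at 1893 and 1722 CPM in the Cd209f Cd163 Lyve1 state, F10 at 169 and 191 CPM in the Ly6c2 Plac8 state, and the points of F3 and Procr lie farthest right in stromal classes.

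The initiating step was split between cell classes in these libraries: F7 and F10 RNA lay in phagocytes, and F3 RNA lay mainly in stroma. F3, the receptor that starts clotting, had 146 UMIs (1.17 CPM) in iron-negative phagocytes and 203 UMIs (2.26 CPM) in iron-positive phagocytes. Across the 10 states it ranged from 0.701 to 2.68 CPM in the iron-negative library and from 1.26 to 5.22 CPM in the iron-positive library. No neighboring states in that order differed beyond counting error. In mesenchymal cells F3 stood at 104 CPM (interval 89.2 to 121, 36 cells) in the iron-negative library and at 56.8 CPM (51.8 to 62.3, 276 cells) in the iron-positive library. Pericyte or smooth muscle cells held 89.2 CPM (77.1 to 103) in the iron-positive library, and endothelial cells 5.49 CPM. Phagocytes thus stood below each of these classes in the iron-positive library. Of 129 cells with at least 3 F3 UMIs, 10 were phagocytes, 98 were stromal or T cells and 21 passed no gate. Such counts, here and below, also depend on class size and depth. In the iron-positive library, 276 mesenchymal cells had a median of 19828 UMIs and 9494 phagocytes a median of 8284. Phagocytes carried 38.0% of all F3 UMIs of kept iron-negative cells and 18.8% of those of iron-positive cells.

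F7, the circulating protease that tissue factor binds, was highest in the Mmp12 Cd36 state of both libraries, at 28.0 CPM (45 UMIs) and 43.1 CPM (742 UMIs). In the iron-negative library the Retnla Cbr2, Ly6c2 Plac8, Il1r2 Ifitm1 Ltb4r1 and Mmp9 Pdpn Arg1 states followed, at 18.4, 17.7, 14.2 and 12.7 CPM, and those neighbors did not differ beyond counting error. In the iron-positive library the Mmp9 Pdpn Arg1 state, whose genes include arginase 1, came second at 36.5 CPM. The Fcrls Cx3cr1 state was low in both, at 2.52 and 2.49 CPM, as was the cycling state, at 2.25 and 7.12 CPM. Stromal F7 was near the limit of the depth. Pericyte or smooth muscle cells of the iron-positive library had 0 UMIs, where the limit set by 3 counts is 1.37 CPM and the exact interval reaches 1.68 CPM, and endothelial cells had 14 UMIs (0.884 CPM). No stromal or T cell had 3 or more F7 UMIs, against 258 phagocytes, which are by far the larger class.

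F10, the protease that the tissue factor complex activates, followed another order, led by the state gated on monocyte markers. Its level was 169 CPM (784 UMIs) in the iron-negative Ly6c2 Plac8 state and 191 CPM (585 UMIs) in the iron-positive one. The Il1r2 Ifitm1 Ltb4r1 state came second at 118 and 129 CPM, and then the Mmp12 Cd36 state at 69.7 and 67.4 CPM. Each of these steps exceeded counting error in both libraries. The lowest state was Fcrls Cx3cr1, at 7.88 and 6.63 CPM, so the span between states was 21.4-fold and 28.8-fold. In the iron-positive library endothelial F10 was 2.53 CPM and mesenchymal F10 1.86 CPM, both below every phagocyte state. Across the 20 points of 10 states in 2 libraries, the log2 levels of the neighboring genes F7 and F10 had a Pearson r of 0.82 and a Spearman rho of 0.85. The value is not particular to neighbors. Among pairs on different chromosomes, F10 and Plaur had a Pearson r of 0.82 and F7 and Thbd 0.84, while the remaining pairs were lower. The points share libraries and marker gates, so these values are descriptions.

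Over all phagocytes, F7 was 7.11 CPM (890 UMIs) in the iron-negative and 18.4 CPM (1659 UMIs) in the iron-positive library, 2.59-fold higher (log2 1.37, interval 1.25 to 1.49). F10 was 33.5 CPM and 48.5 CPM, 1.45-fold higher (log2 0.54, interval 0.47 to 0.60). F3 differed by 0.95 on the log2 scale (0.64 to 1.27), but at under 10 CPM it is not counted among measured genes, and after thinning each cell to 2000 UMIs the value was 0.35. Within states, F7 was higher in the iron-positive library beyond counting error in 4 of 10, namely Mmp12 Cd36 (log2 0.61), Mmp9 Pdpn Arg1 (1.52), interferon (0.96) and cycling (1.65). In cycling cells it was below 10 CPM in both libraries (42 and 87 UMIs). Its interval held a ratio of 1 in the other 6. The Mmp9 Pdpn Arg1 difference was from 12.7 to 36.5 CPM, in a state where 2.11% of measured genes were at least 1.5-fold higher. Of the platelet markers in that state, the chemokine gene Ppbp also stood higher in the iron-positive library, at 36.1 and 126 CPM. Itga2b had 2 and 1 UMIs there, and Gp9, Gp1ba, Gp1bb and Tubb1 had 0 in both libraries. The part of platelet RNA in the F7 difference was not tested. F10 was higher in 6 states, by at most log2 0.68 in cycling cells. It was lower in the Retnla Cbr2 state, at 27.0 against 36.1 CPM (log2 -0.42, interval -0.84 to -0.01).

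F13a1, the A subunit of the fibrin cross-linking enzyme, had the widest span of the 8 genes between states. The iron-negative Cd209f Cd163 Lyve1 state, gated on scavenger receptors and other markers of resident macrophages, held 1893 CPM (interval 1832 to 1957, 3562 UMIs in 153 cells). The iron-positive one held 1722 CPM (8861 UMIs in 481 cells). The Retnla Cbr2 state followed at 1143 and 1250 CPM and the Mmp12 Cd36 state at 703 and 591 CPM. At the other end, the MHC class II state held 43.1 and 41.9 CPM, which makes the span 43.9-fold and 41.1-fold. In both libraries the order of the 10 states was nearly shared (Spearman rho 0.98). In iron-positive stroma it was 11.6 CPM in endothelial cells, 11.3 CPM in mesenchymal cells and 8.19 CPM in pericyte or smooth muscle cells, all below the lowest state.

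Platelets also carry factor XIII A, so their markers were read in the same cells. Of the 6 platelet or megakaryocyte markers, Tubb1 was at 0 in phagocytes of both libraries, and Gp9, Gp1ba and Gp1bb had at most 3 UMIs in either. Itga2b, the platelet integrin chain, had 17 UMIs (0.136 CPM) in iron-negative and 36 UMIs (0.400 CPM) in iron-positive phagocytes. In the Cd209f Cd163 Lyve1 state, where F13a1 peaked, the only markers with any UMI were Gp1bb, with 2 in the iron-positive library, and Ppbp, with 18 and 52. The highest of the 6 was Ppbp, a platelet chemokine precursor, at 7.15 CPM in iron-negative and 38.2 CPM in iron-positive phagocytes, and at 93.3 and 107 CPM in the Mmp12 Cd36 state. The Mmp12 Cd36 state had 0 and 5 UMIs of Itga2b. The summed level of the list was 7.31 and 38.7 CPM, nearly all of it Ppbp. By state it was highest in the iron-positive Mmp9 Pdpn Arg1 cells, at 36.4 CPM in the iron-negative and 126 CPM in the iron-positive library, where F13a1 stood at 382 and 487 CPM.

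Over all phagocytes, F13a1 was 183 CPM (22846 UMIs) in the iron-negative and 383 CPM (34449 UMIs) in the iron-positive library, 2.10-fold higher (log2 1.07, interval 1.04 to 1.09). The same comparison inside the states went both ways. F13a1 was higher beyond counting error in 5 states, by log2 0.13 in Retnla Cbr2 up to 0.66 in cycling cells. It was lower in 4: Cd209f Cd163 Lyve1, its leading state (log2 -0.14), Mmp12 Cd36 (-0.25), Il1r2 Ifitm1 Ltb4r1 (-0.34) and Ly6c2 Plac8 (-0.85). In Ly6c2 Plac8 cells the levels were 370 CPM in the iron-negative and 205 CPM in the iron-positive library, and 3.41% of genes measured in that state were at least 1.5-fold lower. Outside the 10 states, F13a1 was higher in cells that reached no state (log2 0.68, interval 0.58 to 0.79). In RNA-poor cells its interval held a ratio of 1 (log2 0.17, -0.04 to 0.38). When each of the 10 states counted equally, which leaves out both of these groups, the log2 ratio was -0.03. The Cd209f Cd163 Lyve1 state made up 1.68% of iron-negative and 5.07% of iron-positive phagocytes, and the Mmp12 Cd36 state 1.49% and 15.1%. Those 2 states held 20.5% of F13a1 phagocyte UMIs in the iron-negative library and 55.2% in the iron-positive library. The Retnla Cbr2 state, second in F13a1 level, went the other way. It made up 4.29% of iron-negative and 3.37% of iron-positive phagocytes and held 19.8% and 10.2% of their F13a1 UMIs.

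Over all phagocytes, shares of cells gave the same direction as the summed counts. F13a1 was detected in 36.6% of iron-negative and 49.3% of iron-positive phagocytes, at medians of 13141 and 8284 UMIs. After thinning to 2000 UMIs, which left out 522 and 1929 phagocytes, the shares were 19.6% (interval 18.8 to 20.5) and 33.9% (32.8 to 34.9). Endothelial cells of the iron-positive library, which should lack the gene, gave 16.7% at a median of 6367 UMIs and 3.93% after thinning. In the Cd209f Cd163 Lyve1 state the thinned shares were 72.5% and 84.8%, while the summed level was lower in the iron-positive library, so no direction is read from the share there. The same holds for the Mmp12 Cd36 state, with thinned shares of 50.7% and 54.3%.

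**Figure D2:**
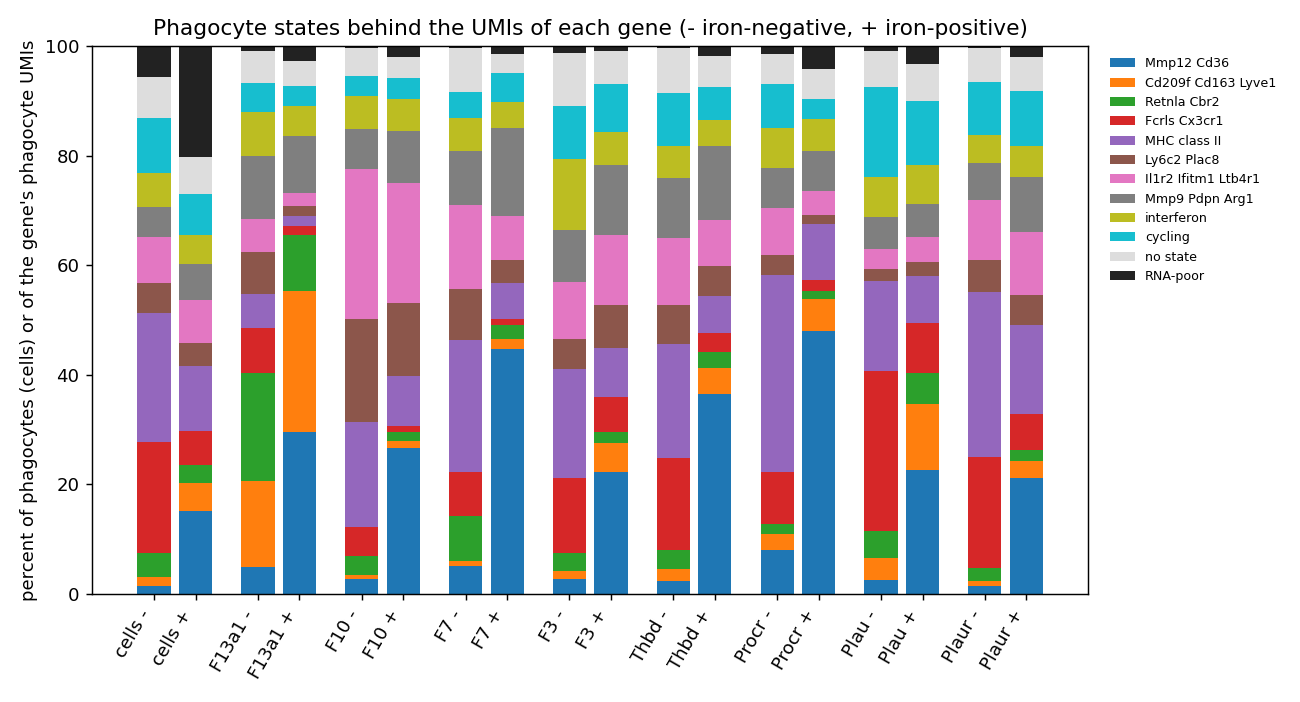
Percent of phagocytes (first pair of bars) and percent of each gene's phagocyte UMIs by state, with - for the iron-negative and + for the iron-positive library, and each bar adding to 100. The Mmp12 Cd36 state holds 15.1% of iron-positive phagocytes and 48.0% of their Procr UMIs, 44.7% of their F7 UMIs and 36.4% of their Thbd UMIs.

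The 2 receptors of the protein C pathway were found in phagocytes and in stroma. Procr, which presents protein C, was led among phagocytes by the Mmp12 Cd36 state in both libraries, at 51.6 CPM (83 UMIs) and 66.6 CPM (1145 UMIs). The next state, Cd209f Cd163 Lyve1, held 15.9 and 27.2 CPM, which was 3.24-fold and 2.45-fold lower, beyond counting error. In the iron-positive library, pericyte or smooth muscle cells at 517 CPM (interval 487 to 548) and endothelial cells at 172 CPM stood above the Mmp12 Cd36 state. Mesenchymal cells at 69.8 CPM did not differ from the Mmp12 Cd36 state beyond counting error. Phagocytes held 79.1% of the Procr UMIs of kept iron-negative cells but 30.3% of those of iron-positive cells. Of 750 cells with at least 3 Procr UMIs, 274 were phagocytes, 357 stromal or T cells and 119 ungated. In the iron-positive Mmp12 Cd36 state, 114 of 1434 cells had 3 or more.

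Over all phagocytes, Procr was 8.31 CPM (1039 UMIs) in the iron-negative and 26.5 CPM (2384 UMIs) in the iron-positive library, 3.19-fold higher (log2 1.67, interval 1.57 to 1.78). Procr was the only gene of the 8 higher beyond counting error in all 10 states. Its log2 ratio ran from 0.36 in Mmp12 Cd36 to 1.34 in the interferon state, where 2.48% of measured genes were at least 1.5-fold higher. In the Fcrls Cx3cr1 and cycling states Procr was below 10 CPM in both libraries. Weighting states equally gave a log2 ratio of 0.72. Stromal marker RNA also stood higher in iron-positive phagocytes. The 12 mesenchymal markers summed to 25.7 CPM in iron-negative and 83.2 CPM in iron-positive phagocytes, with none at 0 in either. The 8 pericyte or smooth muscle markers summed to 6.35 CPM, with 3 at 0, and 16.9 CPM, and the 10 endothelial markers to 69.0 and 105 CPM. Of the endothelial sum Pecam1 made 57.0 and 50.5 CPM, and the other 9 markers together 12.01 and 54.2 CPM. With 10% free RNA of each library's own profile subtracted, the Procr log2 ratio was 1.47. With a gate that allows at most 1 UMI of any other class, the log2 ratio was 1.92. The part of stromal RNA in the within-state differences was not tested.

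Thbd, the thrombin receptor thrombomodulin, differed less between states. Iron-negative levels ran from 14.8 CPM in cycling cells to 45.7 CPM in the Mmp9 Pdpn Arg1 state, and the leading states Mmp9 Pdpn Arg1, Ly6c2 Plac8 and Mmp12 Cd36 (45.7, 43.1 and 40.4 CPM) did not differ beyond counting error. Iron-positive levels ran from 17.0 CPM in the Fcrls Cx3cr1 state to 75.3 CPM in the Mmp12 Cd36 state, which stood above the next state, Mmp9 Pdpn Arg1, at 65.7 CPM. Pericyte or smooth muscle cells held 101 CPM, endothelial cells 46.4 CPM and mesenchymal cells 31.7 CPM in the iron-positive library. Over all phagocytes Thbd was 22.8 CPM (2846 UMIs) and 39.5 CPM (3560 UMIs), 1.74-fold higher in the iron-positive library (log2 0.80, interval 0.73 to 0.87). Within states it was higher in 5, by at most log2 0.89 in Mmp12 Cd36 cells (40.4 against 75.3 CPM), and lower beyond counting error in none.

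The fibrinolysis pair, Plau and Plaur, differed little between the fractions. Plau, the plasminogen-cleaving protease, was 35.2 CPM (4407 UMIs) in iron-negative and 34.4 CPM (3098 UMIs) in iron-positive phagocytes, a log2 ratio of -0.03 with an interval of -0.10 to 0.03. Plaur, its receptor, was 317 CPM (39611 UMIs) and 302 CPM (27212 UMIs), a log2 ratio of -0.07 (-0.09 to -0.04). The median over all 7717 measured genes was -0.11, and relative to it the ratios of Plau and Plaur were 0.07 and 0.04, so neither has a direction that holds under both scalings.

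Between states the receptor and the protease went opposite ways. Plaur was highest in the Ly6c2 Plac8 state, at 486 and 479 CPM, and then in the Il1r2 Ifitm1 Ltb4r1 state, at 450 and 424 CPM, where Plau stood at 16.2 and 19.0 CPM. Plau was highest in the Cd209f Cd163 Lyve1 state, at 93.5 and 72.1 CPM, where Plaur stood at 216 and 167 CPM. Over the 20 state and library points the log2 levels of Plau and Plaur had a Pearson r of -0.71, while F13a1 and Plau had 0.69, F10 and Plaur 0.82 and F7 and Thbd 0.84. Within states, Plau was lower in the iron-positive library in 5 of 10 and higher beyond counting error in none, with the lowest ratio in Mmp12 Cd36 cells, at 70.3 CPM (113 UMIs) against 40.7 CPM (700 UMIs, log2 -0.79, interval -1.08 to -0.49). In that state 7.39% of measured genes were at least 1.5-fold lower. Plaur was lower in 5, with the lowest log2 ratio in Cd209f Cd163 Lyve1 cells (-0.37), and higher in cycling cells by 0.12. Stroma held both genes, with Plau at 44.3 CPM in mesenchymal and 31.9 CPM in endothelial cells and Plaur at 114 and 173 CPM in the same classes of the iron-positive library.

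Of the 8 genes, 7 reached 10 CPM in phagocytes of either library, and 4 of these (F13a1, F7, Thbd and Procr) were at least 1.5-fold higher in the iron-positive library. Among all 7717 measured genes, 2.28% were, but the 8 genes were chosen with earlier results of these data known. None of the 7 was 1.5-fold lower, against 0.596% of measured genes. When each state counted equally, 2 of the 7 passed that fold, F7 at a log2 ratio of 0.61 and Procr at 0.72, against 1.11% of the 7637 genes measured that way. Without the Mmp12 Cd36 state, an alternative chosen after the values were seen, 3 passed (F13a1, F7 and Procr), against 1.6% of genes measured that way. The log2 ratios were then 0.92 for F13a1, 0.88 for F7, 0.47 for Thbd and 1.14 for Procr.

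**Figure D3:**
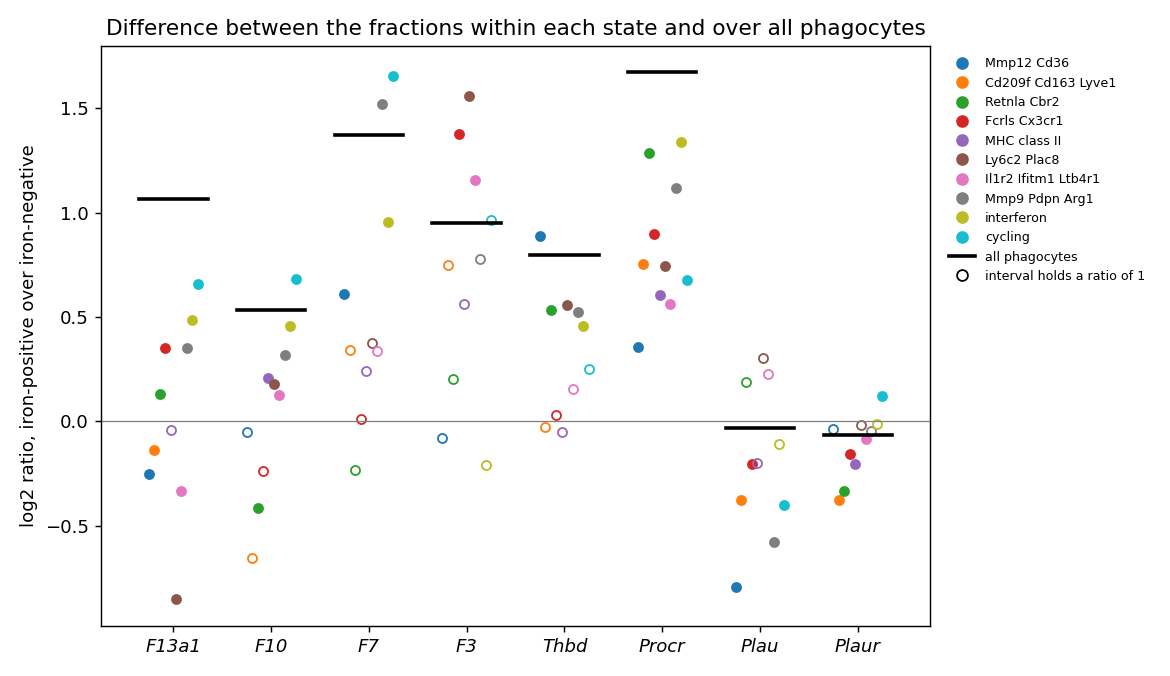
Log2 ratio of iron-positive over iron-negative level for each gene, with a point for each of the 10 phagocyte states (open where the 95% counting interval holds a ratio of 1) and a black line for all phagocytes. The line of F13a1, at 1.07, lies above all 10 of its states (-0.85 to 0.66), and every point of Procr lies above 0.

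The Mmp12 Cd36 state, gated on a macrophage metalloelastase, a lipid scavenger receptor and Gpnmb, held high levels of most of the genes at once. Against all other phagocytes of the same library, 6 of 7 measured members were at least 1.5-fold higher in it in the iron-negative library, where 7.29% of 7820 measured genes were. In the iron-positive library 5 of 7 were, against 5% of 7659. The Ly6c2 Plac8 state came next in the iron-negative library, with 5 of 6 measured members higher (F13a1, F10, F7, Thbd and Plaur, against 6.03% of genes), and 1 lower, Plau. In the iron-positive library 3 of 7 were higher there (F10, Thbd and Plaur, against 6.62%), and F13a1 and Procr were lower. In the Mmp12 Cd36 state Procr was 6.67-fold and 3.91-fold higher, F7 4.09-fold and 3.43-fold, F13a1 4.0-fold and 1.77-fold, F10 2.11-fold and 1.53-fold and Thbd 1.80-fold and 2.42-fold. Plau was 2.02-fold higher in the iron-negative library and 1.24-fold in the iron-positive one. Plaur, at 342 and 334 CPM, was 1.08-fold and 1.13-fold higher than in the other phagocytes. The iron-negative state rests on 136 cells and 1607703 UMIs, and the iron-positive one on 1434 cells and 17200094 UMIs, at like median depths of 10511 and 10943 UMIs.

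The members were set beside the other genes of their pathways. Of 28 further coagulation genes, 9 had no UMI in phagocytes, among them fibrinogen (Fga, Fgb and Fgg), Proc and F12, and 4 reached 10 CPM. Of those 4, the iron-positive level was higher for 2 and lower for 2, never by 1.5-fold, and their median log2 ratio was -0.03 beside -0.11 for all measured genes. Pros1, protein S, the cofactor of activated protein C, was 18.6 and 22.1 CPM over all phagocytes (log2 0.25). Its highest state was Cd209f Cd163 Lyve1, at 62.7 and 130 CPM, the same as for F13a1. Tfpi, the inhibitor of the tissue factor complex, was 10.1 and 10.2 CPM, and the vitamin K reductases Vkorc1 and Vkorc1l1 had log2 ratios of -0.08 and -0.21. The highest ratio among list genes below 10 CPM was that of Tfpi2, with 12 UMIs in iron-negative and 72 in iron-positive phagocytes and 156 CPM in mesenchymal cells. Other genes below 10 CPM also differed beyond counting error, in both directions. F5 had 193 UMIs in iron-negative and 370 in iron-positive phagocytes (log2 1.41, interval 1.16 to 1.67). Its iron-positive level was 4.11 CPM in phagocytes and 0.371 CPM in mesenchymal cells. Ggcx was lower, with 332 and 198 UMIs (log2 -0.27, interval -0.53 to -0.01).

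Of 16 further fibrinolysis and pericellular proteolysis genes described here, 2 had no UMI in phagocytes, the plasmin precursor Plg and Hrg, and 8 reached 10 CPM. Among these 8, 4 were higher and 4 lower in iron-positive phagocytes, none of them by 1.5-fold in either direction, and their median log2 ratio was -0.012. Anxa2 and S100a10, which together form a plasminogen receptor, had log2 ratios of 0.24 and 0.21, and the matrix protein gene Thbs1 0.20. Itgb2 was at 0.08, Itgam at -0.10, Plgrkt at -0.12, Lrp1, the clearance receptor for protease and inhibitor complexes, at -0.14 and Eno1 at -0.19. Plat, the other plasminogen activator, stood at 0.815 CPM (102 UMIs) in iron-negative and 2.66 CPM (239 UMIs) in iron-positive phagocytes. That is a log2 ratio of 1.70 (interval 1.36 to 2.05) below 10 CPM. Its level in iron-positive pericyte or smooth muscle cells was 216 CPM. Serpinf2, also below 10 CPM, was lower in iron-positive phagocytes, with 97 and 46 UMIs (log2 -0.59, interval -1.14 to -0.08).

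**Figure D4:**
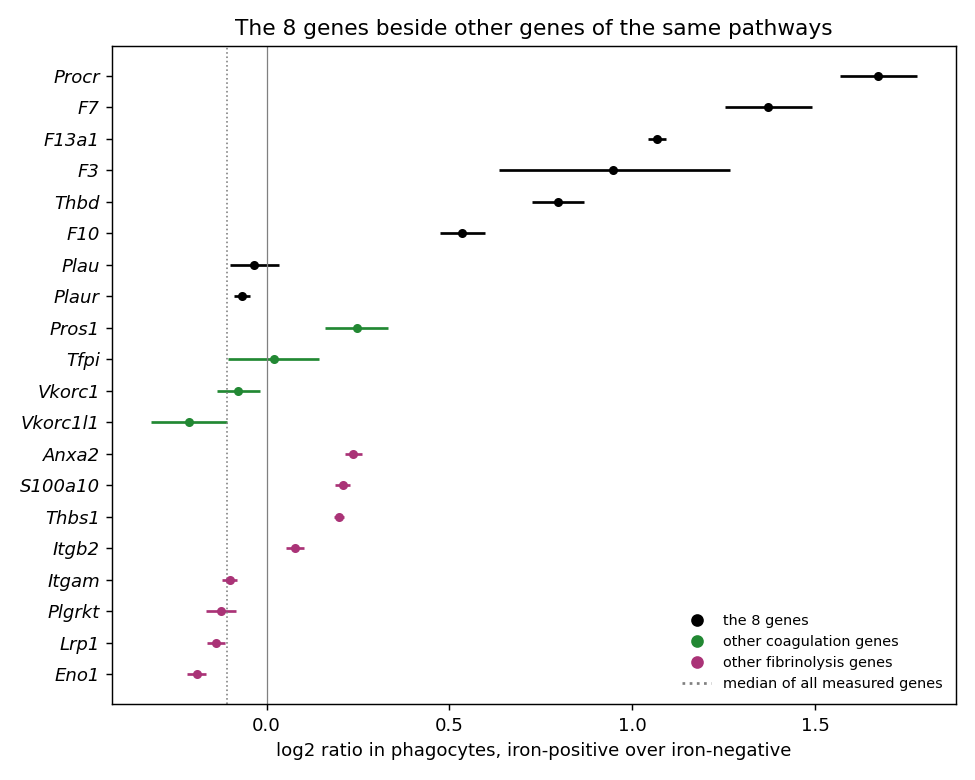
Log2 ratio of iron-positive over iron-negative phagocytes with exact 95% counting intervals for the 8 genes (black), 4 other coagulation genes (green) and 8 other fibrinolysis genes (purple) that reached 10 CPM, and a dotted line at the median of all measured genes (-0.11). Procr (1.67), F7 (1.37) and F13a1 (1.07) lie farthest right, and the highest of the other genes drawn is Pros1 (0.25).

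Genes with the most similar levels were sought over 23 groups of cells (the 10 states in each library and the 3 stromal classes in the iron-positive one, each with at least 50 cells) among 4999 genes. The groups share libraries, so the correlations are descriptions. F13a1 was nearest to Tmem8 (Pearson r 0.98), Ccl6 (0.98) and Atp6v1e1 (0.96), and F10 to the integrin gene Itgb7 (0.95), B3gnt5 (0.95) and Ltb4r1 (0.94), the last of which is a gate marker. F7 was nearest to Arg2 (0.93), Fbxl5 (0.93) and Grina (0.92), and F3 to Pla1a (0.97), the chemokine Ccl11 (0.95) and Rarres2 (0.95). Thbd was nearest to Trappc6b (0.91), Hopx (0.84) and Spry2 (0.81), and Procr to Nfe2l1 (0.91), Rbpms (0.90) and Ccser2 (0.90). For Plau the list was Agfg1 (0.88), Pmp22 (0.86) and Spred1 (0.86), and for Plaur it was Chd7 (0.97), Fxyd5 (0.96) and Srgn (0.96).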

How the data were processed

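The authors deposited UMI counts per gene and barcode for each of the 2 libraries, made by the 10x Genomics 3' v3 protocol per the labels, without normalization. The submitters' processing notes give Cell Ranger 3.1.0 and mm10, while the file headers give 5.0.0; which made the counts was not settled here. Cells with at least 200 genes and at most 15% mitochondrial UMIs were kept. Phagocytes had at least 10 UMIs per 1000 from their marker list and under 2 per 1000 from each other class except platelets and red cells. Endothelial, pericyte and T or NK cells had at least 2 per 1000 and mesenchymal cells at least 4 per 1000 from their own list (3 or more UMIs and 2 or more genes), with under 5 per 1000 phagocyte UMIs. Phagocytes under 2000 UMIs were kept apart as RNA-poor. A state is the list with the highest mean scaled log level, at least 0.5 SD; 1322 cells reached none. UMIs were summed per group, log2 ratios added 0.5 to each count, and genes at 10 CPM in either library were measured. All 8 genes were named, with further pathway genes at 10 CPM or with the largest ratios, and the 3 most similar genes of each. 1 gene of the fibrinolysis list is not reported here and was left out of that list's counts, medians and plot. Genes and lists were chosen with earlier results of these data known. Scrublet in scanpy 1.11.5 called 0 doublets in both libraries, which means that it did not work, so doublets remain. An alternative removed the 762 and 1328 cells with the highest scores. Scripts were tested on simulated data. The analysis used Python 3.11.15, numpy 2.4.6, scipy 1.17.1 and pandas 2.3.3.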

Additional observations from a re-analysis of the deposited data

Results flagged for a closer look

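For 3 of the genes, the difference between the fractions went one way in one phagocyte state and the opposite way in another, each beyond counting error. The difference between the states was not tested, since each fraction is 1 library. F13a1 was higher in iron-positive cycling cells (log2 ratio 0.66, 64.1 against 101 CPM in the iron-positive library) and lower in iron-positive Ly6c2 Plac8 cells (-0.85, 370 against 205 CPM). F10 was higher in cycling cells (0.68, 8.35 against 13.4 CPM) and lower in Retnla Cbr2 cells (-0.42, 36.1 against 27.0 CPM). Plaur was higher in cycling cells (0.12, 206 against 224 CPM) and lower in Cd209f Cd163 Lyve1 cells (-0.37, 216 against 167 CPM). The cycling state had the highest ratio for each of the 3.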

How the results depend on the processing

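No paired analysis was possible because each group has 1 library. Of 128 main values recomputed under an alternative, 84 stayed within the counting interval or within 1.5 times the count, and the others of the 128 follow. All log2 ratios here are iron-positive over iron-negative phagocytes. Mitochondrial and gene-number filters changed no main value beyond that, nor did leaving out RNA-poor phagocytes (added after seeing the data). Removing the cells with the highest doublet scores did not either. Those scores came from the run that called 0 doublets, so that alternative cannot show what doublets contribute. The stricter gate, which kept 5776 and 5516 phagocytes, gave 0.95 for F13a1, 0.97 for F10, 1.64 for F7, 1.92 for Procr, -0.12 for Plau and -0.0073 for Plaur. The mean of each cell's CPM gave 0.79 for F13a1, 0.42 for F10, 1.19 for F7, 0.55 for F3, 0.65 for Thbd and -0.12 for Plaur. Scaling by the median ratio gave 1.17 for F13a1, 0.64 for F10, 0.91 for Thbd, 1.78 for Procr and 0.074 for Plau, and turned Plaur to 0.041. Thinning to 2000 UMIs gave 0.82 for F13a1, 0.43 for F10, 1.11 for F7, 0.35 for F3 and 0.66 for Thbd. Free RNA subtraction gave 1.10 for F13a1 and 1.47 for Procr. Equal weights for states turned F13a1 to -0.031 and gave 0.12 for F10, 0.61 for F7, 0.42 for Thbd, 0.72 for Procr, -0.25 for Plau and -0.10 for Plaur, with 2 members past 1.5-fold. Leaving out the Mmp12 Cd36 state (added after seeing the data) gave 0.92 for F13a1, 0.42 for F10, 0.88 for F7, 0.47 for Thbd, 1.14 for Procr and -0.10 for Plaur. The states in which Plaur was higher in the iron-positive library numbered 2 with a state score of at least 1 SD, and those of Plau 5 when thinned. Under those alternatives the highest state stayed as reported in at least 14 of 16 cases. The level of each gene in its highest state was also recomputed, outside the 128 values. That level stayed within its counting interval in 32 cases and left it in 32, which are not listed. The peak levels are thus less stable than the order of the states. The coagulation list's median turned to 0.13 with no filter (19 genes), and no gene of it reached 50 CPM. The fibrinolysis list's median turned to 0.14 with no filter (14 genes) and was -0.12 with equal weights. Apart from what each alternative leaves out, the cause was not tested. F3 counts in phagocytes limit what depth can show.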
